A study of Sus scrofa with 33 samples.

Results

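The heat response of Creole pigs was read from 11 of the 33 pituitary arrays of the series: 6 arrays of Creole pigs (CR) under heat stress (HS) and 5 of Creole pigs kept in thermoneutral (TN) conditions. The members were chosen by the breed code and the temperature in the array titles. The question was which pituitary transcripts of this breed, a local population of the French West Indies, differed between the warm and the thermoneutral room. All pigs were castrated males in the growing phase, and 1 array was hybridised per animal, so that every p-value below measures the spread between pigs. By the labels TN was 24 °C and HS 30 °C, but in the protocol text and the methods the warm room was at 32 °C, applied for up to 5 days. Both groups were raised together under TN conditions, and the TN pigs were slaughtered first, in the days before the room was warmed. Temperature, slaughter day and the few days of added age therefore cannot be told apart in these arrays. The methods placed littermates in different pens, but litter, pen and parents were not in the labels and did not enter the fits. The other 22 arrays, 11 of Large White (LW) and 11 of LW × CR crossbred pigs (F1), likewise split between TN and HS, served to estimate the common spread and to compare responses between breeds. 1 of the LW HS arrays carries Large White in its title and Creole in its breed field, and it was kept as LW.

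The pituitary is the gland through which the brain sets the output of the thyroid, adrenals and gonads as well as growth and lactation. Its anterior lobe holds separate cell types that package the hormones GH, PRL, ACTH, TSH, LH and FSH into granules and release them under the control of hypothalamic factors. In warm rooms pigs eat less and lower their thyroid hormone output, and heat within cells calls up chaperones, the heat shock proteins, which refold or hold damaged proteins. The growing gland also keeps dividing cells, stromal cells and a dense capillary bed, whose transcripts are all part of a whole-tissue measurement, so that fewer cells of a type and less RNA per cell cannot be told apart here.

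Signal was alike over the Creole arrays, while background followed the slide and 1 array stood apart in expression. On the 11 Creole arrays the median pixel intensity over all spots lay between 138.5 and 165 units, the local background between 20 and 45 units, and between 73.8% and 82.2% of the probes were well above background. The 3 Creole arrays of slide 5, CR TN 5, CR HS 5 and CR HS 6, had backgrounds of 20 to 26 units and the other 8 of 38 to 45. No spot was saturated, and the number of arrays limits the precision. The 7 hormone genes GH1, PRL, POMC, CGA, LHB, FSHB and TSHB were well above background on all 11 arrays, as the tissue label, pituitary gland, would have it. So were AVP and OXT, whose peptides are stored in the posterior lobe, and PAX7, a factor of the intermediate lobe, although the methods name the anterior lobe as the part sampled. The first principal component of the 11 arrays held 30.5% of the variance, of which slides accounted for 68.4% and temperature for 9.11%. Slides form more groups than temperature does, so these shares are not directly comparable. On this component CR TN 1 scored -67.7, and the other 10 arrays scored -25.5 to 33.2. The array CR TN 1 stood apart from the rest. Its mean correlation with the other Creole arrays was 0.985, against 0.990 to 0.992 for the other 10, and it lay more than 1 log2 unit outside the range of those 10 on 291 probes, against 4 to 55 probes for any other array. Among the 96 named genes on these probes, 90 were higher and 6 lower in CR TN 1. TSHB, the thyrotropin beta subunit, was at 10.57 in CR TN 1 and at 15.46 to 16.34 in the other 10 pigs, whereas transcripts such as CRABP1, CRYM, ADM, OTX2 and PTGDS were higher in CR TN 1. Values without this array are given beside many of the results below.

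No probe passed the test for differential expression between HS and TN in Creole pigs. With limma and Benjamini-Hochberg adjustment over all 45667 probes of the deposited table, 0 probes passed an adjusted p of 0.05 (0% of the probes tested), and the smallest adjusted p was 0.150. An unadjusted p under 0.05 was reached by 2671 probes (5.85%), of which 1456 were higher in HS (3.19%) and 1215 lower (2.66%). Without CR TN 4 the number was 1741. An even spread of p-values would put 2283 probes in this range. The next bins of the same width, up to a p of 0.2, held 2767, 2798 and 2709 probes, so the smallest p-values formed no peak. The differences were small, with a median size of 0.09 on the log2 scale against a median standard error of 0.12, and 23 probes differed by more than 1 log2 unit. On 277 probes (0.607%) every HS pig lay on 1 side of all TN pigs, 165 with HS above (0.361%) and 112 with HS below (0.245%), and with single arrays left out this number ran from 370 to 863. Leaving out an array can only raise this number or keep it, so the direction of that change was fixed in advance. Without CR TN 1 again 0 probes passed (0%) and 2065 probes had an unadjusted p under 0.05 (4.52%). Without CR TN 2 instead, 2 probes passed, A_72_P152871 and a probe for C4H8orf37, an open reading frame named after its human counterpart, with limma adjusted p-values of 0.00202 and 0.0248, and 3344 probes had an unadjusted p under 0.05. No gene below passed the adjusted threshold with all arrays, and the values are given as log2 differences, HS minus TN, with the standard error (SE) of the fit.

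**Figure D1:**
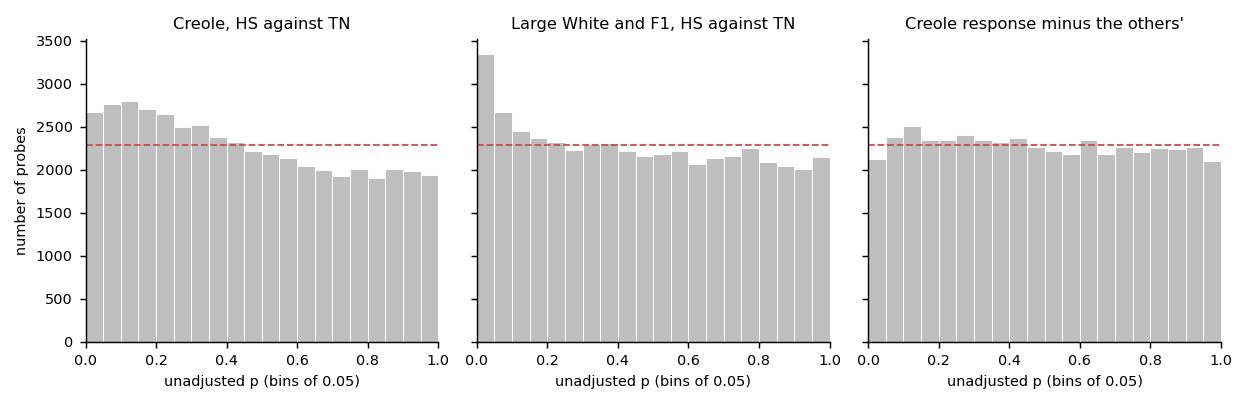
Distribution of unadjusted limma p-values over 45667 probes for Creole HS against TN (left), LW and F1 HS against TN (middle) and the Creole response minus that of the other breeds (right); x axis, p-value in 20 bins; y axis, number of probes; the dashed line is an even spread. In the left panel the lowest bin holds 2671 probes against 2283 for an even spread, and the bins from 0.05 to 0.2 hold 2767, 2798 and 2709.

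Of the 12 probes with the smallest p, 8 carried no gene symbol, although 1 of the 8 has the same 60 bases as the probe of CHI3L1. The first was A_72_P152871, without an annotated gene, whose log2 intensity was 7.87, 8.98, 8.47, 8.17 and 7.82 on CR TN 1 to 5 and had a lowest, median and highest value of 8.84, 9.32 and 9.52 in the 6 HS pigs. CR TN 2 lay inside the HS range, and the other 4 TN pigs lay below every HS pig. The difference was 0.96 (SE 0.17), and it was above 0 on all 4 slides that held both Creole groups. A_72_P046146, designed on an expressed sequence tag, read 5.82, 6.69, 6.68, 5.89 and 5.87 on CR TN 1 to 5 and 6.86, 7.17 and 7.78 as lowest, median and highest HS values, so that the groups did not overlap. Its difference was 1.1 (SE 0.23), and 1.00 without CR TN 1. In the opposite direction, A_72_P194642, also without a symbol, read 7.84, 8.13, 8.50, 8.72 and 8.39 in the TN pigs and 6.86, 7.38 and 7.83 in HS, with every HS pig below every TN pig and a difference of -0.90 (SE 0.19).

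Among the named genes in this group were CHI3L1, a secreted chitinase-like glycoprotein, TCP11L1, ETV1, an ETS transcription factor, and APP, the amyloid precursor protein. CHI3L1 lay at 7.76, 8.13, 7.32, 7.74 and 7.44 in the TN pigs and at 6.33, 6.78 and 7.33 (lowest, median, highest) in HS, with a difference of -0.89 (SE 0.20). The second probe of these bases gave -0.83. The groups overlapped through CR TN 3, the lowest of the TN pigs, and the highest HS pig. TCP11L1 differed by 0.66 (SE 0.15) with 2 of 2 probes above 0, and ETV1 by 0.61 (SE 0.14). These probe sequences are shown because the leading probes have no gene name, and the letters are what a reader can search with. The 60-base probes are given as listed in the array files, each on its own line, with the named ones beside them. No other probe of the array shared a run of 25 bases with the 3 unnamed ones, with either strand searched.

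The sequences were as follows.
A_72_P152871: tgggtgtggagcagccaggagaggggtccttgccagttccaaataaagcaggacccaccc
A_72_P046146: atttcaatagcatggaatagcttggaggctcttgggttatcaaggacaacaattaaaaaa
A_72_P194642: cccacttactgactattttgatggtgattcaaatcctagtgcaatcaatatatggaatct
CHI3L1: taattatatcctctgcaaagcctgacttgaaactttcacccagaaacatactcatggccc
TCP11L1: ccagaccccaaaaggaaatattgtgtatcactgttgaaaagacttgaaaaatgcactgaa
APP: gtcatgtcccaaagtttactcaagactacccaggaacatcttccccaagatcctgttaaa

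Genes with a symbol, a signal well above background on all 11 arrays and groups that did not overlap numbered 139 when any probe of a gene counted, of which 101 were higher in HS and 38 lower. On the brightest probe alone, 45 of 10246 named genes had HS above and 22 had HS below. The 15 with the largest difference in each direction are described here, and since the absence of overlap selected them, their small unadjusted p-values carry no further weight. HAS1, hyaluronan synthase 1, had the largest positive difference of these. It lay at 6.94, 7.57, 6.46, 7.12 and 7.74 on CR TN 1 to 5 and at 7.78, 8.16 and 8.30 (lowest, median and highest) in HS. The TN pigs were widely spread and the HS pigs were close together, just above the highest TN pig. The means were 7.16 ± 0.51 (SD, n = 5) in TN and 8.11 ± 0.20 (SD, n = 6) in HS, a difference of 0.95 (SE 0.24) or 1.93-fold, and 0.89 without CR TN 1. CADM3, a neuronal cell adhesion molecule, differed by 0.51 (SE 0.15) and CAMK1, a calmodulin-dependent kinase, by 0.48 (SE 0.14). GHITM, a protein of the inner mitochondrial membrane, read 9.84, 10.09, 10.08, 9.73 and 10.08 in the TN pigs and 10.21, 10.48 and 10.58 in HS on its leading probe, a difference of 0.48 (SE 0.18). All 11 probes of GHITM lay above 0, 6 of them at an unadjusted p under 0.05, though their differences reached down to 0.00. JTB, a transmembrane protein, differed by 0.46 (SE 0.14) and had 3 of 3 probes at an unadjusted p under 0.05. CDK5, a kinase best known from neurons, differed by 0.38 (SE 0.14) with 2 of 2 such probes, and MORN3 by 0.47 (SE 0.13) with 2 of 2.

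The remaining higher genes differed by between 0.34 and 0.49. These were AKTIP, which binds the kinase AKT (0.49, SE 0.22), QRSL1, an enzyme of mitochondrial tRNA charging (0.40, SE 0.20), ACKR1, the chemokine-binding Duffy antigen (0.37, SE 0.14), RTN2, a protein that shapes the endoplasmic reticulum (0.35, SE 0.11), MAGEF1 (0.35, SE 0.17) and PNMA1 (0.34, SE 0.10). SDHB, the iron-sulphur subunit of respiratory complex II, differed by 0.34 (SE 0.14) on its leading probe, and 9 of its 9 probes lay above 0, 3 of them with groups that did not overlap. Its brightest probe differed by 0.05, so the probes of this gene disagreed on the size. HSP90AB1, the constitutive cytosolic HSP90, differed by 0.34 (SE 0.14) on 1 probe and 0.11 (SE 0.06) on its brightest, and its 7 probes spread from -0.15 to 0.34, 4 above 0 and 3 below. Its brightest probe came to 0.07 without CR TN 3.

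Among the genes lower in HS, DDR2, a receptor tyrosine kinase for fibrillar collagen, had the largest difference. It lay at 8.48, 7.74, 8.07, 7.75 and 7.93 in the TN pigs and at 7.29, 7.37 and 7.49 in HS, a difference of -0.62 (SE 0.17) that was -0.50 without CR TN 1. The second DDR2 probe differed by -0.24, with overlapping groups. LUM, the collagen-binding proteoglycan lumican, differed by -0.46 (SE 0.13) on the probe whose groups were apart, PCOLCE, an enhancer of procollagen processing, by -0.44 (SE 0.13), and HIGD1B, a mitochondrial protein, by -0.56 (SE 0.19). All 11 LUM probes lay below 0, from -0.70 to -0.05, and 6 had an unadjusted p under 0.05. APP read 8.51, 8.74, 8.87, 8.47 and 8.33 in the TN pigs and 7.82, 8.12 and 8.31 in HS on its leading probe, a difference of -0.50 (SE 0.11). This probe stood alone in size: all 13 APP probes lay below 0, with a median of -0.11, and 2 had an unadjusted p under 0.05. TNNI3, cardiac troponin I, differed by -0.46 (SE 0.16), and here the probes were alike, with 9 of 9 at an unadjusted p under 0.05 and between -0.54 and -0.42. GRB10, an adaptor that binds the insulin and IGF1 receptors, differed by -0.42 (SE 0.12) with 6 of 6 probes below 0 and 4 at an unadjusted p under 0.05. CDCA3 (-0.61, SE 0.17), CCNB2 (-0.45, SE 0.15), ARHGAP11A (-0.45, SE 0.16) and ESPL1 (-0.38, SE 0.21) act in cell division, and DEPDC1B differed by -0.36 (SE 0.12). MAP3K6, a stress kinase (-0.42, SE 0.14), USP47, a deubiquitinase (-0.41, SE 0.14), and TTC14 (-0.36, SE 0.13) were less even across probes, with 1 of 2 MAP3K6, 2 of 5 USP47 and 7 of 8 TTC14 probes below 0 and 1 of each at an unadjusted p under 0.05. Of the 30 genes, 27 were at an unadjusted p under 0.05, and 27 again without CR TN 1.

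**Figure D2:**
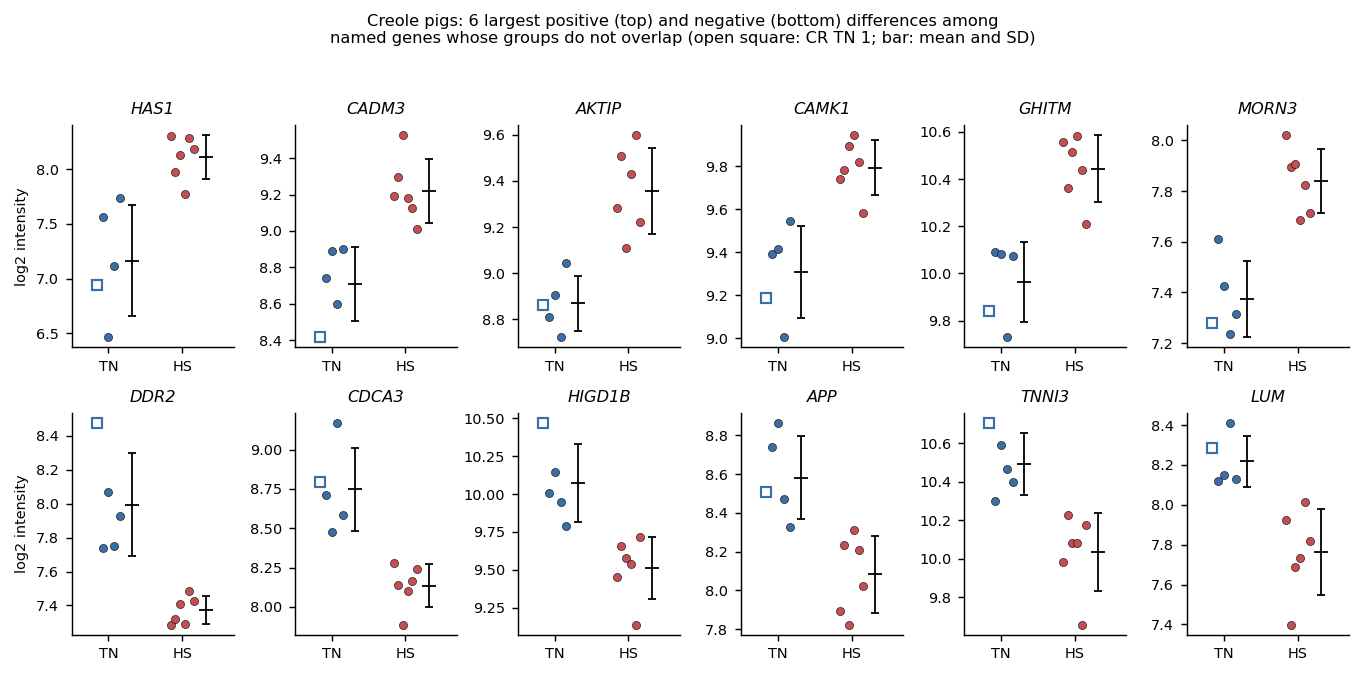
Log2 intensity of 12 named genes in Creole pigs; x axis, TN (5 pigs) and HS (6 pigs); y axis, deposited log2 intensity; each point is 1 pig, the open square is CR TN 1, and the bar gives mean and SD. Groups did not overlap on any of the 12 by selection, and HAS1 ran from 6.46 to 7.74 in TN and from 7.78 to 8.30 in HS.

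No hormone gene stood out. None of the 7 had an unadjusted p under 0.05, the median difference was 0.02, and 5 lay above 0. GH1, growth hormone, differed by 0.01 (SE 0.05), with a 95% interval of -0.10 to 0.12, and POMC, the precursor of ACTH, by 0.02 (SE 0.05), with an interval of -0.08 to 0.11. CGA, the alpha subunit shared by TSH, LH and FSH, differed by -0.00 (SE 0.05), with an interval of -0.11 to 0.10. All 3 probes lie at the top of the intensity scale, where quantile normalization gives every array nearly the same values and can narrow differences. On the processed signal of the scanner, scaled without quantile normalization, GH1 differed by 0.03, POMC by -0.00 and CGA by 0.04. PRL, prolactin, differed by 0.09 (SE 0.09) with an interval of -0.09 to 0.27, LHB by -0.03 (SE 0.16) with -0.35 to 0.29, and FSHB by 0.21 (SE 0.22) with -0.24 to 0.66, so that the intervals of the gonadotropin beta subunits were wide. FSHB came to 0.10 and LHB to -0.16 without CR TN 1, and FSHB ran up to 0.40 without CR TN 3. PRL came to 0.06 without CR TN 4. TSHB read 10.57, 15.86, 16.34, 15.95 and 15.72 on CR TN 1 to 5 and 15.46, 15.93 and 16.28 in HS, which gave 1.03 (SE 0.85) with all arrays and -0.05 without CR TN 1. The positive value of TSHB thus came from 1 TN pig.

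The genes that control and package the hormones gave few small p-values. The share to read these counts against is that of the brightest probe of all 10246 named genes, of which 3.79% had an unadjusted p under 0.05 with higher values in HS and 2.29% with lower, at a median difference of 0.02. Of 21 receptors for hypothalamic factors and feedback hormones, 1 was at an unadjusted p under 0.05 with higher values in HS and 0 with lower, and the median was -0.01. Without CR TN 1 these counts were 2 and 2, and with all arrays 1 receptor was at such a p. This was SSTR2, a somatostatin receptor that restrains GH and TSH release, with 5.11, 5.52, 5.72, 5.52 and 5.58 in the TN pigs, 5.64, 5.91 and 6.17 in HS and a difference of 0.44 (SE 0.13), which was 1.06 on the processed signal of the scanner. The probe is dim, well above background on 10 of the 11 arrays. NR3C1, the glucocorticoid receptor, differed by 0.17 (SE 0.08), CRHR1, the receptor for corticotropin-releasing hormone, by 0.23, TRHR, the receptor for thyrotropin-releasing hormone, by 0.14, and GHRHR by -0.24. Of 12 transcription factors that define pituitary lineages, 0 were at an unadjusted p under 0.05, and LHX3 and SOX9 differed by 0.23 (SE 0.13) and -0.56 (SE 0.30), or by 0.16 and -0.27 without CR TN 1. The median of this list was 0.07, and it turned to -0.07 without CR TN 1. Of 13 genes of granules and prohormone processing, 11 lay above 0 and 2 were at an unadjusted p under 0.05, both higher in HS, with a median of 0.16 that was 0.06, with 1 such gene, without CR TN 1. SCGN, the calcium-binding protein secretagogin of endocrine cells, read 6.04, 6.90, 6.26, 6.97 and 6.79 in the TN pigs and 6.68, 7.35 and 7.59 in HS, a difference of 0.66 (SE 0.19), and 0.53 without CR TN 1. RAB3A, a GTPase of granule release, differed by 0.16 (SE 0.08) with 4 of 4 probes above 0 and 0.08 without CR TN 1, and SCG2, a granin, by 0.32 (SE 0.18), or 0.14 without CR TN 1.

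Heat shock protein genes gave small differences in the Creole pigs, in both directions. Of 30 cytosolic members, 19 lay above 0, 1 was at an unadjusted p under 0.05 with higher values in HS and 0 with lower, and the median difference was 0.05. Without CR TN 1, 2 members were at such a p. The median was 0.03 without CR HS 3 and 0.08 without CR TN 2. The inducible HSP70.2 differed by -0.02, HSPA8 by -0.03, HSPH1 by -0.06, HSP90AA1 by -0.06, DNAJB1 by -0.01, HSPB1 by 0.03 and HSF1, the transcription factor that switches them on, by -0.02. DNAJB6, a co-chaperone that holds back protein aggregation, was the member at the small p, with 9.95, 9.75, 10.17, 9.66 and 10.02 in the TN pigs, 10.11, 10.41 and 10.43 in HS and a difference of 0.44 (SE 0.15). Of 10 mitochondrial chaperones and proteases the median was 0.02, with HTRA2 at 0.28 (SE 0.14) and CLPX, well above background on 8 of 11 arrays, at -0.21 (SE 0.09), or -0.68 on the processed signal of the scanner, the only members at an unadjusted p under 0.05. Of 20 chaperones and stress sensors of the endoplasmic reticulum, 14 lay above 0, with a median of 0.11 and 0.03 without CR TN 1. HSPA5, the BiP chaperone, differed by 0.22 (SE 0.10) with 3 of 3 probes above 0, was the only member at an unadjusted p under 0.05, and came to 0.14 without CR TN 1. No member was at an unadjusted p under 0.05 without CR TN 1 or with slide as a block. CR TN 1 was the array with the lowest summed level of this list (log2 of the sum of its genes' intensities), 18.71 against 18.97 or more in the other pigs.

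Mitochondrial and redox genes differed by small amounts. Of 54 genes of oxidative phosphorylation, 45 lay above 0, against 56.4% of all named genes, while 2 were at an unadjusted p under 0.05, and the median was 0.07, or 0.04 with 1 such gene without CR TN 1. On the processed signal of the scanner the median was 0.13. NDUFV1, the NADH-binding subunit of complex I, differed by 0.36 (SE 0.16), and UQCRB, a subunit of complex III, by 0.17 (SE 0.08) with 8 of 8 probes above 0. Counted over all 144 probes of these genes, 124 lay above 0 and 15 were at an unadjusted p under 0.05 with higher values in HS, where 872 of all 21076 named probes were and 58.7% of them lay above 0. These probes share genes and are not independent. Of 28 antioxidant and redox enzymes, 0 were at an unadjusted p under 0.05, or 1 without CR TN 1, with a median of 0.04. The median of this list was 0.002 without CR TN 3 and 0.06 without CR TN 2. SOD1, the cytosolic superoxide dismutase, differed by 0.10 (SE 0.07), SRXN1, sulfiredoxin, by 0.28 (SE 0.16), and TXNIP, the thioredoxin inhibitor, by -0.40 (SE 0.22) with 11 of 11 probes below 0 and 0 of them at an unadjusted p under 0.05.

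Of the 22 lists, the cell cycle genes had the median furthest from 0. Of 36 genes of this list 26 were measured, 22 lay below 0, and 16 were at an unadjusted p under 0.05, all with lower values in HS, where 2.29% of all named genes were. The median difference was -0.34, against 0.02 for all named genes, and none of the 26 passed the adjusted threshold. Without CR TN 1 the median was -0.32 and 13 genes remained at an unadjusted p under 0.05, all among the 16, and with slide as a block 15 of the 16 did. Without CR TN 4 the count was 10, at a median of -0.28. The 3 members with the smallest p, TPX2, UBE2C and CDCA3, act in mitosis. UBE2C, a ubiquitin-conjugating enzyme of the anaphase-promoting complex, read 10.23, 9.85, 9.52, 10.29 and 9.64 in the TN pigs and 8.90, 9.28 and 9.57 in HS, a difference of -0.67 (SE 0.18). TPX2, a spindle assembly factor, read 9.50, 9.27, 8.61, 9.45 and 8.95 and 8.07, 8.58 and 8.75, a difference of -0.64 (SE 0.17). On both genes 1 or more TN pigs lay inside the HS range. CDCA3, which promotes entry into mitosis, had 8.79, 8.71, 8.48, 9.17 and 8.58 in the TN pigs and 7.89, 8.15 and 8.28 in HS, a difference of -0.61 (SE 0.17), with groups apart on both of its probes. CCNB2, cyclin B2, was the other member with groups apart, at 6.47, 6.23, 6.27, 6.62 and 6.56 and 5.86, 5.97 and 6.20, a difference of -0.45 (SE 0.15).

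TOP2A, the DNA topoisomerase of dividing cells, differed by -0.79 (SE 0.24), RRM2, a subunit of ribonucleotide reductase, by -0.63 (SE 0.22), CENPF, a kinetochore protein, by -0.57 (SE 0.22), PTTG1, securin, by -0.48 (SE 0.18), and CDK1 by -0.41 (SE 0.16). The list was not uniform. MKI67, the Ki-67 proliferation marker, differed by 0.11 (SE 0.11), PCNA, the replication clamp, by -0.04 (SE 0.14), MCM6 by 0.10 (SE 0.16), CDC6 by 0.05 (SE 0.13) and KIF11 by 0.04 (SE 0.18). With each gene centred, the median of the 26 genes was 0.26, 0.16, -0.10, 0.43 and 0.06 on CR TN 1 to 5 and -0.08, -0.12, -0.35, -0.14, -0.26 and -0.08 on CR HS 1 to 6. CR TN 4 and CR TN 1 were highest, CR HS 3 lowest, and CR TN 3 lay inside the range of the HS pigs. Over the arrays left out in turn the median lay between -0.40 and -0.28, and over all 46 probes of these genes 40 lay below 0 and 29 were at an unadjusted p under 0.05, where 499 of all 21076 named probes were with lower values in HS. These probes share genes, the genes moved together from pig to pig, and neither are independent. The same list had medians of -0.09 in LW and -0.25 in F1 pigs. For the difference between the Creole response and the other breeds, 1 of the 26 genes had an unadjusted p under 0.05. Of all 10246 named genes, 446 did, so this count is near the background.

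**Figure D3:**
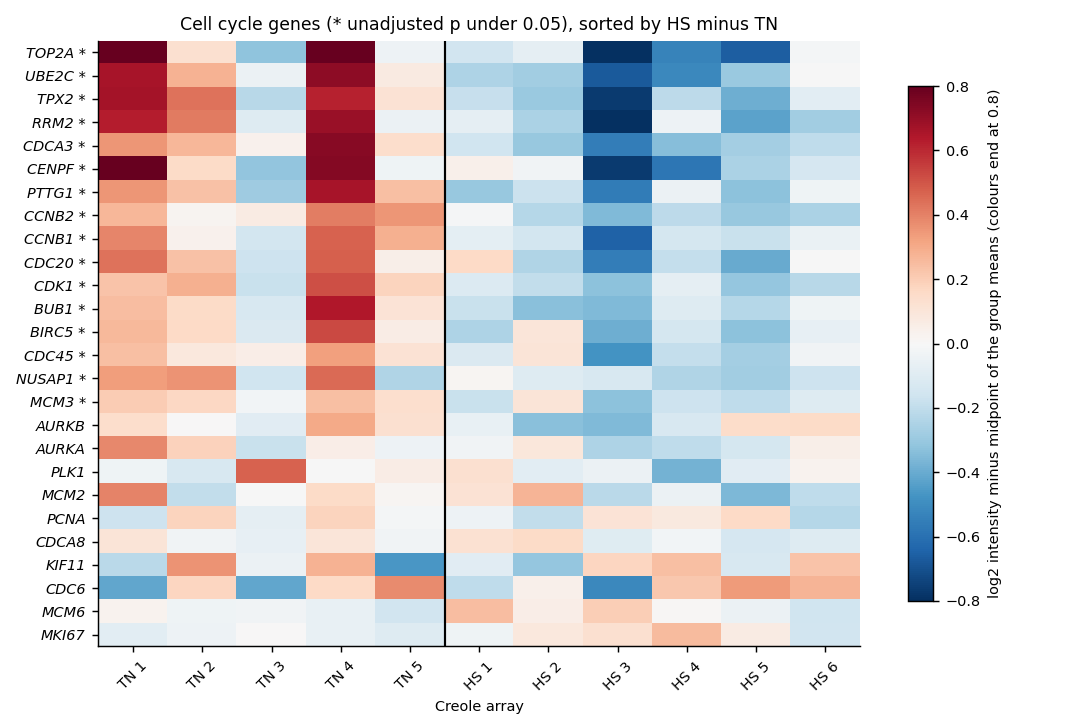
Log2 intensity of the 26 measured cell cycle genes on the 11 Creole arrays, each gene centred midway between its TN and HS means; colour gives the centred log2 value, columns are arrays and genes are ordered by their difference. Most genes are lower in the HS pigs, with CR TN 3 close to the HS pigs, and MKI67, MCM6, CDC6 and KIF11 lie above 0.

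Immediate early genes, transcribed within minutes of a stimulus, spread widely between pigs. Of 12 measured, 2 were at an unadjusted p under 0.05, both lower in HS, and the median was -0.05, or -0.23 on the processed signal of the scanner, with 1 to 4 such genes when any 1 array was left out. FOS lay at 12.42, 13.07, 13.42, 14.46 and 14.04 in the TN pigs and at 10.35, 12.57 and 13.09 in HS, a difference of -1.38 (SE 0.66), with 5 of 5 probes below 0. JUN, its partner in the AP-1 factor, lay at 14.50, 14.24, 14.13, 14.82 and 14.37 and 13.32, 13.83 and 14.20, a difference of -0.66 (SE 0.18). EGR1 differed by -0.91 (SE 0.47) and DUSP1, a phosphatase that switches off MAP kinases, by -0.44 (SE 0.27), whereas JUNB, NR4A1 and IER3 differed by -0.10, -0.00 and 0.01. The groups overlapped on FOS and on JUN, and their standard deviations show how uneven the pigs were, FOS having means of 13.48 ± 0.80 (SD, n = 5) in TN and 12.11 ± 1.14 (SD, n = 6) in HS. All 8 measured glucocorticoid-induced genes lay below 0, with a median of -0.24, and -0.13 and -0.23 in LW and F1 pigs. One of them, or 2 without CR TN 1, was at an unadjusted p under 0.05, NFKBIA, an inhibitor of NF-kappaB, at -0.28 (SE 0.13), with 4 of 5 probes below 0, and FKBP5, a co-chaperone of the glucocorticoid receptor, differed by -0.28, SGK1 by -0.20 (SE 0.12) and KLF9 by -0.20.

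Clock genes showed no common direction. Of 14 measured, 6 lay above 0, with a median of -0.06, or 0.05 without CR TN 1, and 1, or 2 without that array, was at an unadjusted p under 0.05, NR1D2, a nuclear receptor of the clock, at 0.30 (SE 0.14). CRY1 and HLF differed by 0.19 (SE 0.13) and 0.16 (SE 0.11), HLF running from 0.08 to 0.27 with single TN arrays left out, and PER1, which is also induced by glucocorticoids, by -0.10. Of 18 genes of insulin-like growth factor and energy signalling, 16 lay below 0, with a median of -0.19, or -0.12 without CR TN 1, which had the highest summed level of the list. IGFBP7, an IGF binding protein that endothelial cells make, was the only member at an unadjusted p under 0.05, at -0.30 (SE 0.15), and -0.15 without CR TN 1. PDK4 and CPT1A, which turn cells toward fat oxidation, differed by -0.62 and -0.39 (SE 0.23), IGF1 by 0.10 and IGF2R by -0.17 (SE 0.10).

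Markers of the vessel wall and stroma had differences below 0 in most cases. Of all 10246 named genes 4469 lay below 0, and 2.29% were at an unadjusted p under 0.05 with lower values in HS. All 14 endothelial markers lay below 0, 4 at an unadjusted p under 0.05, with a median of -0.32, or -0.15 and 2 genes without CR TN 1, and 2 to 7 genes with any 1 array left out. With slide as a block 6 of these markers were at such a p. Their summed level ran from 14.73 to 15.81 in TN and from 14.58 to 14.98 in HS, with the highest TN value in CR TN 1. KLF4, a transcription factor that flow induces in endothelium, differed by -0.76 (SE 0.26) with 8 of 9 probes at an unadjusted p under 0.05, KLF2, its relative, by -0.43 (SE 0.15), VWF, the von Willebrand factor, by -0.60 (SE 0.22), and TIE1 by -0.38 (SE 0.16). VWF came to -0.38 without CR TN 1, and its other probe differed by -0.10. Of the 3 KLF2 probes, A_72_P619984 differed by -0.11. PECAM1 and KDR, which mark the same cells, differed by -0.22 and -0.07. Of 13 markers of fibroblasts and mural cells, 11 lay below 0 and 4 were at an unadjusted p under 0.05, all lower in HS, with a median of -0.32, or -0.25 and 2 genes without CR TN 1, and 2 to 5 genes with any 1 array left out. With slide as a block 5 of the 13 were at such a p. COL1A1, the chain of type I collagen, lay at 13.59, 12.59, 13.03, 13.32 and 13.15 in the TN pigs and at 11.79, 12.48 and 13.04 in HS, a difference of -0.67 (SE 0.24). COL3A1 differed by -0.59 (SE 0.20), COL1A2 by -0.37 (SE 0.15) and PDGFRB by -0.45 (SE 0.20), whereas ACTA2 and PDGFRA differed by 0.13 and 0.11. The summed level of this list was 15.94 to 16.77 in TN and 15.73 to 16.38 in HS. LUM is itself a member of this list, and the part of the list in the values of DDR2 and PCOLCE was not tested. The endothelial and stromal medians in LW were -0.27 and -0.35, and in F1 -0.16 and -0.14.

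Blood-borne cells differed gene by gene. HBB, beta globin, read 11.50, 9.56, 9.87, 10.64 and 10.73 in the TN pigs and 8.38, 9.51 and 10.49 in HS, a difference of -1.03 (SE 0.37), and -0.78 without CR TN 1. The HS pigs were lower on average, with wide overlap. A probe for an alpha globin transcript read 16.87, 15.34, 14.95, 16.29 and 16.07 and 13.35, 14.55 and 15.48, a difference of -1.36 (SE 0.37), with 6 of 6 HS pigs below the TN mean. This probe carries no symbol of the marker list and is outside its count, median and level. Of the 11 measured red blood cell markers HBB alone was at an unadjusted p under 0.05, the median was -0.07, the summed level was 12.32 to 13.30 in TN and 12.35 to 12.88 in HS, and ALAS2, the haem synthesis enzyme of red cell precursors, differed by 0.04. The median of these markers was -0.12 without CR HS 5 and -0.03 without CR HS 1. S100A8, a calprotectin subunit of neutrophils, was the only one of 9 leukocyte markers at an unadjusted p under 0.05, at 0.44 (SE 0.19), or 0.26 without CR HS 2, with PTPRC, CD3E and CD68 at -0.10, -0.04 and 0.03, CD163 at -0.42 (SE 0.23) and a list median of -0.04, or 0.05 without CR TN 1. Of 20 interferon-stimulated genes 0 were at an unadjusted p under 0.05, with a median of 0.10 that was 0.02 without CR HS 5 and 0.14 without CR HS 4, IFIT3 at 0.27 (SE 0.23) and IFIH1 at 0.19 (SE 0.15), or 0.11 without CR TN 1. Folliculostellate and stem cell markers had a median of 0.05, with 0 of 11 at an unadjusted p under 0.05, and the 4 intermediate lobe markers, PAX7 included at 0.01, a median of 0.08 with 0 of 4, or 0.00 without CR TN 1. Of 8 markers of the posterior lobe and neurons, 2 were at an unadjusted p under 0.05, both higher in HS, among them the neuropeptide gene GAL, at 0.58 (SE 0.26) on a probe well above background on 9 of 11 arrays, with a list median of 0.15, or 0.28 with 1 such gene without CR TN 1. Without CR HS 4 the median was -0.01 and GAL came to 0.29. AVP and OXT differed by -0.05 and -0.10, and the summed level of the list was 17.47 to 17.68 in TN and 17.37 to 17.63 in HS.

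**Figure D4:**
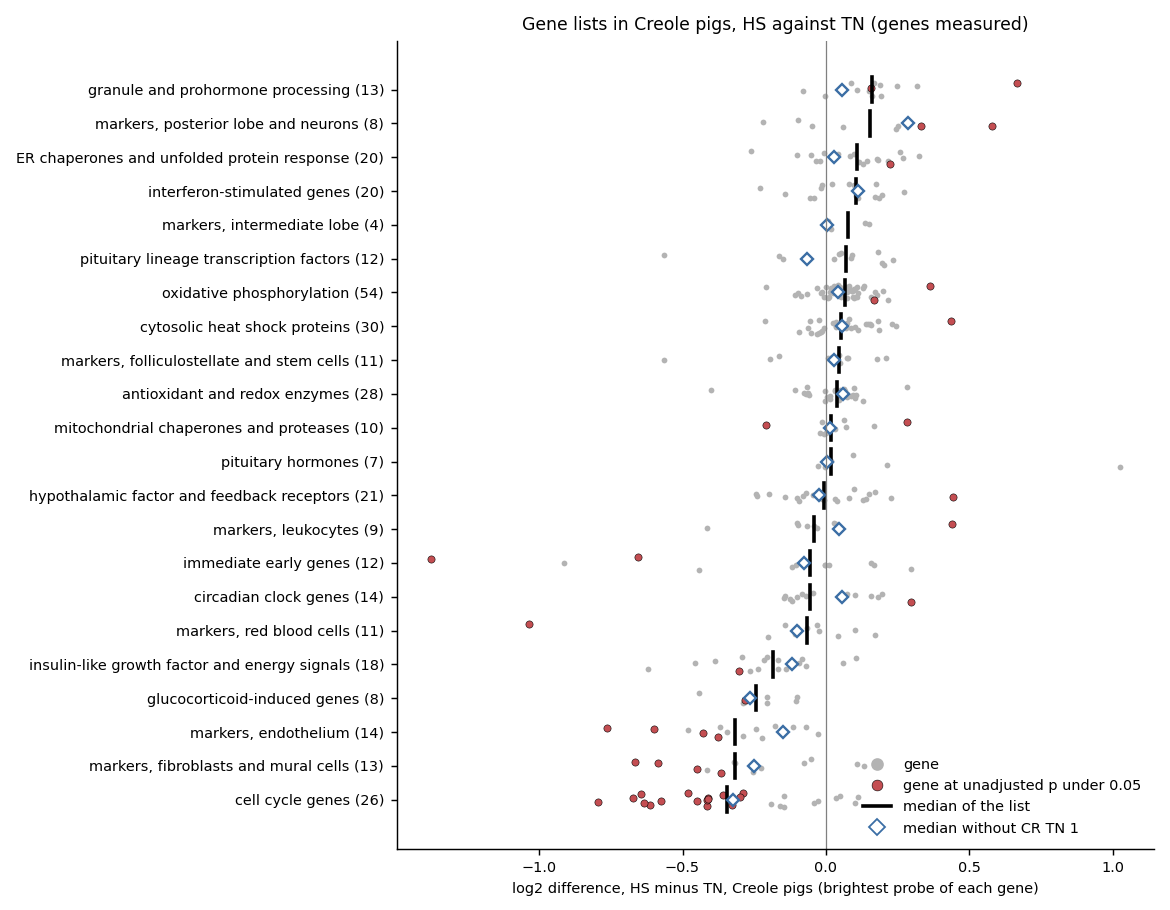
Log2 difference, HS minus TN, in Creole pigs for the genes of 22 lists; x axis, log2 difference of the brightest probe of each gene; each list is on its own line with the number of genes measured, filled points are genes at an unadjusted p under 0.05, the bar is the list median and the diamond the median without CR TN 1. Cell cycle genes, endothelium and fibroblasts lie furthest below 0, and hormones and heat shock proteins lie near 0.

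The Creole response was then set against that of the other breeds, as the Creole difference minus the mean of the LW and F1 differences. With limma and Benjamini-Hochberg adjustment 0 of 45667 probes passed (0%), the smallest adjusted p being 0.970, and 2130 had an unadjusted p under 0.05 (4.66%). The 10 named genes with the smallest p were APP, PRPF3, TCP11L1, NCOA6, RASIP1, KAT7, TXNRD1, CA2, MED14 and PI4KA. APP differed by -0.50 in Creole, 0.22 in LW and 0.16 in F1 pigs, and CA2, carbonic anhydrase 2, by 0.66, -0.54 and -0.55. The 5 CA2 probes ran from 0.04 to 0.66 in Creole pigs with a median of 0.21, and 1 was at an unadjusted p under 0.05. TXNRD1, the cytosolic thioredoxin reductase, differed by -0.19 in Creole and by 0.21 and 0.21 in the others, on 1 of 6 probes that were not all of 1 sign. On 9 of these 10 the Creole difference was opposite in sign to both other breeds, a pattern that the choice by smallest p favours. SCGN and DNAJB6, described above, differed by -0.06 and -0.10 in LW and by -0.09 and -0.11 in F1, with unadjusted limma p-values for the breed difference of 0.00313 and 0.00564 and adjusted p-values of 0.970. Both genes were named for their small p in Creole pigs, whose values also enter this contrast. That choice favours a small p here too, so these p-values carry no further weight. Of the 30 genes with groups apart, 16 had the Creole sign in LW and 23 in F1, where 55.3% and 51.4% of all probes did.

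Probes can also be chosen on animals that did not enter the Creole comparison. In a fit of the 22 LW and F1 arrays alone, 0 probes passed the adjusted threshold of limma (0%, smallest adjusted p 0.185), and 3349 had an unadjusted p under 0.05 (7.33%). Of these 3349 probes, 62.0% had the same sign in the Creole pigs, against 54.9% of all probes. The share was 54.8% with array weights in the fit. The share was 72.7% of the 1274 probes lower in HS and 55.5% of the 2075 higher in HS, and neighbouring probes and co-regulated genes make these probes dependent. The breeds also shared slides, and in every breed the TN pigs were slaughtered before the HS pigs. Temperature, slaughter day and age therefore cannot be told apart in these shared signs either. Of the 10 named probes with the smallest p there, 9 had the same sign in Creole pigs and 3 an unadjusted p under 0.05. MGP, the matrix Gla protein of vessel walls and cartilage, held 5 of the 10. Its probe with the smallest p in that fit read 13.85, 12.81, 13.57, 13.25 and 13.13 in the Creole TN pigs and 12.52, 12.84 and 13.45 in HS, a difference of -0.38 (SE 0.19), beside -0.77 in LW and -0.67 in F1 pigs. All 7 MGP probes lay below 0 in Creole pigs, from -0.48 to -0.36, and 2 had an unadjusted p under 0.05. Without CR TN 1 they ran from -0.37 to -0.20. KLF2 differed by -0.44 on the probe chosen in the other breeds, HBB by -1.03, SRSF5, a splicing factor, by 0.09 (SE 0.11) with 2 of 6 probes above 0, and ARG1, arginase 1, by -0.27 (SE 0.16). The ARG1 probe was well above background on 10 of 11 arrays, and its value came to -0.14 without CR TN 5. Over the alternative settings ARG1 ran from -0.50 to -0.17. CNN1, calponin of smooth muscle, had the opposite sign at 0.11 (SE 0.24), beside -0.20 in LW and -1.07 in F1, and it turned to -0.14 without CR HS 5. SRSF5 ran from 0.04 to 0.17 with single arrays left out. Beyond the signs, none of these differences between breeds passed the adjusted threshold.

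**Figure D5:**
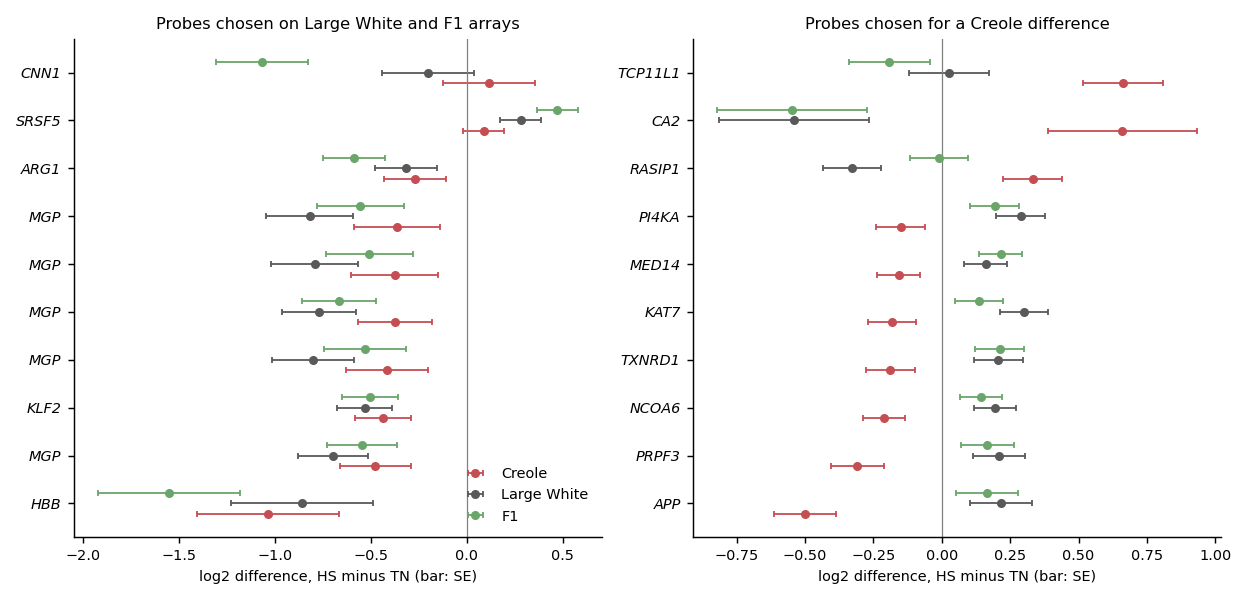
Log2 difference, HS minus TN, in Creole, LW and F1 pigs for the 10 named probes with the smallest p in the LW and F1 arrays (left) and the 10 with the smallest p for the Creole response against the others (right); x axis, log2 difference; each point is 1 probe in 1 breed and bars are standard errors. On the left the MGP, KLF2, HBB and ARG1 probes lie below 0 in each breed, and on the right 9 of 10 Creole values lie opposite to both other breeds.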

How the data were processed

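Total RNA of the pituitary of 33 pigs, 1 pig per array, was hybridised to single-colour Agilent arrays. Per the labels and methods, signals were extracted with Agilent Feature Extraction 10.10.1.1, and the authors deposited log2 values of the median pixel signal, imported with limma and quantile-normalized between arrays with preprocessCore, without background correction and after removal of dim probes (45667 of 60305 probes kept). The pixel intensity of each spot, per the file headers in arbitrary scanner units, and the other 0 or 1 marks of Feature Extraction that the authors deposited gave signal, background and well-above-background calls. Because quantile normalization gives every array the same distribution, only changes relative to the rest of the transcriptome can be seen.

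Groups came from the array titles. The deposited log2 values were fitted with limma 3.58.1 (R 4.3.3), with 1 mean per breed-by-temperature group over all 33 arrays, and the 5 Creole TN arrays were compared with the 6 Creole HS arrays by a two-sided moderated test with Benjamini-Hochberg adjustment at 0.05. The random effects of pen, slaughter day and parents in the methods were not in the labels and not fitted here. The code was tested on simulated data. Gene symbols came from the array files and were updated with RefSeq gene tables of Sscrofa11.1, which named 21076 of the 45667 probes, for 10246 genes. Each gene of 22 lists was read on its brightest probe.

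The genes named are any past the adjusted threshold, the 12 probes with the smallest p in part, the 15 with the largest difference in each direction among bright named genes whose groups did not overlap, the 7 hormones, the 3 smallest p-values per list and other list members as examples, the 10 smallest p-values for the breed comparison and for the LW and F1 arrays, and haemoglobin, KLF2 and MGP probes. Some genes that this rule names are not reported here. The probes with the smallest p and the further list members were picked after their values were seen, and the members and lists were chosen with earlier results of these data known. Alternatives covered normalization, background correction, filters on dim probes, the arrays in the fit, slide as a block, array weights, the variance model, the breed of 1 LW HS array and each Creole array left out.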

Additional observations from a re-analysis of the deposited data

Results flagged for a closer look

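Of 282 groups of values examined, 18 held a pig whose gap to the others exceeded the critical value of Dixon's test for single outliers, and chance gives about 1 in 20. Of the 18, 13 were probes and 5 were summed list levels, and 7 came from CR TN 1.

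CR TN 1 was low on TSHB (10.57, the other TN pigs at 15.72 to 16.34), SCG2 (15.25 against 16.08 to 16.28), DUSP1 (11.46 against 12.32 to 12.61) and HSPA5 (15.06 against 15.40 to 15.53). It was also low on the summed levels of the endoplasmic reticulum list (18.71 against 19.03 to 19.11) and the lineage transcription factors (15.72 against 16.07 to 16.17), and high on that of insulin-like growth factor and energy signals (17.07 against 16.36 to 16.55). CR TN 3 was low on DNAJC7 (11.60 against 12.33 to 12.54), HSPE1 (14.86 against 15.07 to 15.11) and TXNIP (13.86 against 14.66 to 14.99). CR TN 2 was high on TCP11L1 (10.08 against 9.36 to 9.54), and CR TN 5 was low on NFKBIA (13.62 against 14.07 to 14.21).

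Among the HS pigs, CR HS 3 was low on ESPL1 (6.32 against 6.72 to 6.94), NCOA6 (5.31 against 5.51 to 5.63) and the summed cell cycle level (13.68 against 13.83 to 13.88). CR HS 1 was high on LHX3 (12.53 against 12.25 to 12.34), CR HS 4 low on PCSK2 (5.96 against 7.75 to 8.62), and CR HS 6 low on the summed granule and processing level (19.72 against 19.86 to 19.87). No explanation of these values was tested.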

How the results depend on the processing

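Over 12 alternative settings, 0 probes passed the adjusted threshold of limma in Creole HS against TN, and with single Creole arrays left out the number was 0 to 2, with 2 without CR TN 2. Probes at an unadjusted p under 0.05 numbered 1741 to 3344 with single arrays left out, and probes whose groups did not overlap 370 to 863, or 104 with the LW HS array of doubtful breed taken as Creole. Leaving out an array cannot lower the number without overlap, and adding an array cannot raise it, so these directions were fixed in advance. For the breed comparison 0 probes passed throughout, and the share of heat probes of the other breeds with the same sign in Creole pigs was 54.8% to 70.8% over the settings, lowest with array weights, and 57.4% to 67.4% with single arrays left out. The differences of 8 genes changed direction under some of the alternatives. CGA was 0.0403 on the processed signal, 0.0100 with the doubtful array as Creole, 0.0165 as a mean within slides and -0.0471 to 0.0194 with arrays left out. GH1 was -0.00612 with slide as a fixed block and -0.00569 as a mean within slides. LHB was 0.0259 with the doubtful array as Creole, 0.00176 as a mean within slides and -0.16 to 0.0517 with arrays left out. PCSK2 was -0.14 within slides and -0.0156 to 0.52 with arrays left out, and POMC was -0.000889 on the processed signal. With arrays left out CNN1 ran from -0.14 to 0.22, MC3R from -0.0265 to 0.23 and TSHB from -0.0549 to 1.39. On the processed signal CCNB2 was -0.79 and DEPDC1B -0.62. List medians moved by more than their spread for the clock (0.03 with array weights and 0.05 without CR TN 1), immediate early genes (-0.23 on the processed signal) and oxidative phosphorylation (0.13 on the processed signal). The cell cycle median was -0.43 to -0.30 over the settings. The cause was not tested for any of these. Pairing by replicate number was not possible because the titles carry no replicate numbers, and the numbers used here follow deposit order. Slides that held both groups were used as a block instead. With 5 against 6 pigs and whole tissue, differences in rare cell types or of small size may not have been detectable.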
